A study of Mus musculus with 12 samples.

Results

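Medullary thymic epithelial cells (mTECs) that lack Aire were compared between their mature and immature fractions, on 3 of the 12 arrays of the study, chosen by their titles: Aire-/- mTEChi 1 and 2 against Aire-/- mTEClo 1. The study hybridised RNA of sorted mTECs to Affymetrix 2.0 ST gene arrays, 1 array per sample, in a line with or without Aire and a line with or without Brg1. All mice were C57BL/6 and 4 weeks old. Every sample was sorted from digested, stroma-enriched thymus as cells without DAPI or CD45 staining, positive for Epcam and UEA and low for Ly51. MHC class II then split them into a high fraction (mTEChi) and a low fraction (mTEClo). The groups used here, besides Aire-/- mTEChi and Aire-/- mTEClo, were Aire+/+, Brg1-/- and Brg1+/+ cells of the same fractions, each with 2 mTEChi arrays and 1 mTEClo array. The labels give no further allele, no Cre driver and no statement that arrays of a group came from separate mice, so p-values measure the spread between these arrays, which may be technical.

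In the thymic medulla, mTECs display proteins of many peripheral tissues to developing T cells. As background, immature mTEClo give rise to mTEChi, which raise MHC class II and the costimulatory ligands CD80 and CD86, and of which many express Aire, a nuclear regulator that turns on a large share of the tissue-restricted genes. Late fates of the lineage include cells that resemble keratinocytes, tuft cells, microfold cells and other peripheral types. Brg1, encoded by Smarca4, is the ATPase of SWI/SNF chromatin remodelling complexes.

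Values below are log2 of the deposited intensity, and a difference is mTEChi minus mTEClo, so 1 unit is a doubling. The probe set of Aire read 9.01 and 9.73 in Aire-/- mTEChi, against 6.72 in Aire-/- mTEClo. It read 8.04 and 8.80 in Aire+/+ mTEChi, against 6.43 in Aire+/+ mTEClo. Signal of this probe set was therefore not lower in the knockout arrays than in the wild-type ones, and where its probes lie relative to the deleted part was not known here, so it does not check the genotype label. The Aire difference without Aire was 2.65 ± 0.660 (SE), with an adjusted p of 0.23 in limma and 0.0306 with the array number as a block.

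The fraction labels were checked on the costimulatory ligands. Cd80 read 9.82 and 10.23 in Aire-/- mTEChi, against 6.89 in Aire-/- mTEClo. Both mTEChi arrays lay above the mTEClo array, by 3.13 ± 0.534 (SE) on average, with an adjusted p of 0.0702 in limma and 0.0124 with the block. Cd86 read 7.79 and 7.48 in Aire-/- mTEChi, against 5.34 in Aire-/- mTEClo, a difference of 2.29 ± 0.478 (adjusted p = 0.135, with the block 0.00871). Neither ligand passed without the block. The same differences averaged 3.05 for Cd80 and 2.45 for Cd86 over both wild types, where both passed (adjusted p = 0.0101 and 0.0128). Of the sort markers, Epcam, the epithelial adhesion molecule used for sorting, read 8.69 and 8.41 in Aire-/- mTEChi, against 9.17 in Aire-/- mTEClo. Ptprc, which encodes CD45, read 5.10 and 4.79 in Aire-/- mTEChi, with 5.26 in Aire-/- mTEClo, near the array medians.

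The array number, 1 or 2, moved with the values. Arrays numbered 2 had medians over genes of 5.32 to 5.36, against 5.43 to 5.50 on arrays numbered 1. All mTEClo arrays carry number 1, so a difference that takes in mTEChi 2 also crosses numbers. In all 4 mTEChi groups, 318 genes were at least 1 unit higher on number 1 and 123 at least 1 unit higher on number 2. None of these 441 genes is among the genes past the test given next. The spread in that test comes from the differences between numbers 1 and 2, so such genes could hardly pass. With the block, 17 of them are among those past it. The part of the array number in the other differences was not tested.

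Between mature and immature mTECs without Aire, 104 of 22154 genes passed the test (limma, Benjamini-Hochberg adjusted p under 0.05), 0.469% of those tested. Of these, 85 rose in Aire-/- mTEChi (0.384%) and 19 fell (0.0858%). The median difference was 2.97 among the genes that rose, within 1.92 to 5.82, and -2.48 among those that fell, within -3.38 to -1.88. The median over all genes was -0.09. With the array number as a block, 505 genes passed (2.28%), 326 up (1.47%) and 179 down (0.808%), and all 104 were among them. Without a test, 598 genes (2.7%) had both Aire-/- mTEChi arrays at least 1 unit above the mTEClo array and 455 (2.05%) at least 1 unit below. In bulk RNA, fewer cells of a kind and less RNA per cell cannot be told apart.

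The count rests on both mTEChi arrays and on the other groups' spread. Leaving out Aire-/- mTEChi 1 or 2 sets 1 array against 1, and nearly all calls were lost either way. Without Aire-/- mTEChi 2, the Aire-/- arrays left are numbered 1 alone. The spread then still takes in arrays numbered 2 of the other groups. Unadjusted p-values under 0.05 were then about as many as a uniform spread of p-values would give. With 1 Aire+/+ mTEChi array left out, whichever it was, 21 passed, and with 1 Brg1-/- mTEChi array left out 5 passed. For a single gene, an exact permutation of 2 arrays against 1 could reach no p below 0.333.

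The kallikrein genes Klk1b1 and Klk1b9 were among the largest rises. Klk1b1, of the glandular kallikrein family of secreted serine proteases, read 8.86 and 9.34 in Aire-/- mTEChi, against 3.28 in Aire-/- mTEClo (5.82 ± 0.332, adjusted p = 0.00552). Its relative Klk1b9 read 10.37 and 11.12 in Aire-/- mTEChi, against 5.69 in Aire-/- mTEClo (5.05 ± 0.358, adjusted p = 0.0101). Klk1b11, named after its values were seen, read 12.13 and 12.22 in Aire-/- mTEChi, against 9.28 in Aire-/- mTEClo (2.90 ± 0.351, adjusted p = 0.0252). These paralogs are close in sequence and their probe sets may read more than 1 of them, so they are not independent observations.

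To show that closeness, the RefSeq promoters of the 3 kallikrein genes (GRCm38.p6, plus strand, 250 bases before the start to 50 after) are given 5′ to 3′. They lie at chr7:43966501-43966800 for Klk1b1, chr7:43975811-43976110 for Klk1b9 and chr7:43995627-43995926 for Klk1b11. Capitals mark the run TTTAAA, which was chosen after the sequences were seen.
Klk1b1: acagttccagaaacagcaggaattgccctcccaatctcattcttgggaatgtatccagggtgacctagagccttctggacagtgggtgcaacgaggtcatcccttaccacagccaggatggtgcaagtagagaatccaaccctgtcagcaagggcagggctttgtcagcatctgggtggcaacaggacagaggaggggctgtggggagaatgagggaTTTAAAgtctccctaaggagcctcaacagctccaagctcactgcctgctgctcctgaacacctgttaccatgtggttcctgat
Klk1b9: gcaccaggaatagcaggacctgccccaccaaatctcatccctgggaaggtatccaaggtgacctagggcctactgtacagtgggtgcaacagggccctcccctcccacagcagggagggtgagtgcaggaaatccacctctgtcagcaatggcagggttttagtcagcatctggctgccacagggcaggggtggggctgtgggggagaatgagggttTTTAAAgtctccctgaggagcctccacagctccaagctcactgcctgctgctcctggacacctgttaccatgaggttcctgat
Klk1b11: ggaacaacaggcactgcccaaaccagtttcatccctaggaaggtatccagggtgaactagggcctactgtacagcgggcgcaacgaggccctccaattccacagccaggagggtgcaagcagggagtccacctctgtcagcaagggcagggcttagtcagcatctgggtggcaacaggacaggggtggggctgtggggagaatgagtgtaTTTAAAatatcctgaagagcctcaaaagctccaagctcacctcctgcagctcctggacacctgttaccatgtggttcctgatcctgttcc
Aligned end to end with gaps, Klk1b1 shared 86.4% of aligned bases with Klk1b9 and 85.5% with Klk1b11, and Klk1b9 shared 85.6% with Klk1b11. TTTAAA occurred once in each, beginning 33 bases before the start in Klk1b1 and Klk1b9 and 40 bases before it in Klk1b11. A RefSeq promoter was at hand for 16912 of 22154 measured genes, and 13.4% of these had TTTAAA in any promoter, over both strands. TATAAA, which cannot overlap it on either strand, was in none of the 3. Counted by gene in the same way, TATAAA was found for 16 of 63 genes that rose without Aire (25.4%). It was found for 118 of 332 genes higher in the wild types (35.5%) and for 14.3% of all measured genes with a promoter. These shares are descriptions and say nothing of a factor.

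Among other genes that rose, H2-Eb2, which encodes an MHC class II beta chain, read 9.79 and 10.45 in Aire-/- mTEChi, against 5.72 in Aire-/- mTEClo (4.40 ± 0.539, adjusted p = 0.026). Saa2, an acute-phase serum amyloid A protein, read 10.37 and 10.75 in Aire-/- mTEChi, against 5.24 in Aire-/- mTEClo (5.32 ± 0.394, adjusted p = 0.0101). Serpinb12, a protease inhibitor of the serpin family found in epithelia, read 8.63 and 8.26 in Aire-/- mTEChi, against 4.35 in Aire-/- mTEClo (4.09 ± 0.308, adjusted p = 0.0101). In each, both mTEChi arrays stood well above the mTEClo array.

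The rest of the 12 leading rises spanned several tissues. Anxa10, an annexin, differed by 4.82, and Pate11, a member of a family expressed in prostate and testis, by 5.13. Tmed6, of the cargo receptors of the early secretory pathway, differed by 4.81, and Epyc, a cartilage proteoglycan, by 4.35. The peptide genes Uts2b (urotensin 2B) and Npb (neuropeptide B) differed by 4.20 and 3.62, and Pln, which encodes the calcium pump regulator phospholamban, by 3.64. All 7 passed, with adjusted p between 0.0191 and 0.0441.

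Tagln, Mgp and Ccl11 were among the largest falls. Tagln, which encodes the actin-binding protein transgelin of smooth muscle, read 7.53 and 7.24 in Aire-/- mTEChi, against 10.77 in Aire-/- mTEClo (-3.38 ± 0.445, adjusted p = 0.0332). Mgp, matrix Gla protein, an inhibitor of calcification, read 9.54 on both Aire-/- mTEChi arrays, against 12.23 in Aire-/- mTEClo (-2.69 ± 0.304, adjusted p = 0.024). Ccl11, the eosinophil chemoattractant eotaxin, read 7.66 and 8.0 in Aire-/- mTEChi, against 10.64 in Aire-/- mTEClo (-2.81 ± 0.302, adjusted p = 0.0229). In Aire+/+ mTEChi, Tagln read 7.47 and 7.38, Mgp 9.86 and 10.07 and Ccl11 7.61 and 7.68, and all 3 also passed as lower in the wild types.

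Other falls were in a cysteine protease inhibitor, a tuft cell gene and enzymes. Ctla2a, the inhibitor, read 6.67 and 6.57 in Aire-/- mTEChi, against 9.13 in Aire-/- mTEClo (-2.51, adjusted p = 0.044). Lrmp, an endoplasmic reticulum membrane protein listed with tuft cells, read 6.35 and 6.48 in Aire-/- mTEChi, against 8.68 in Aire-/- mTEClo (-2.26, adjusted p = 0.0252). Fst, the activin antagonist follistatin, differed by -2.80, Lox, a collagen cross-linking enzyme, by -2.18, and Aldh2, mitochondrial aldehyde dehydrogenase, by -2.48. Catsperz, a subunit of the sperm calcium channel, differed by -2.60 and Isoc1 by -2.31; these 5 passed with adjusted p between 0.0332 and 0.0481.

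**Figure D1:**
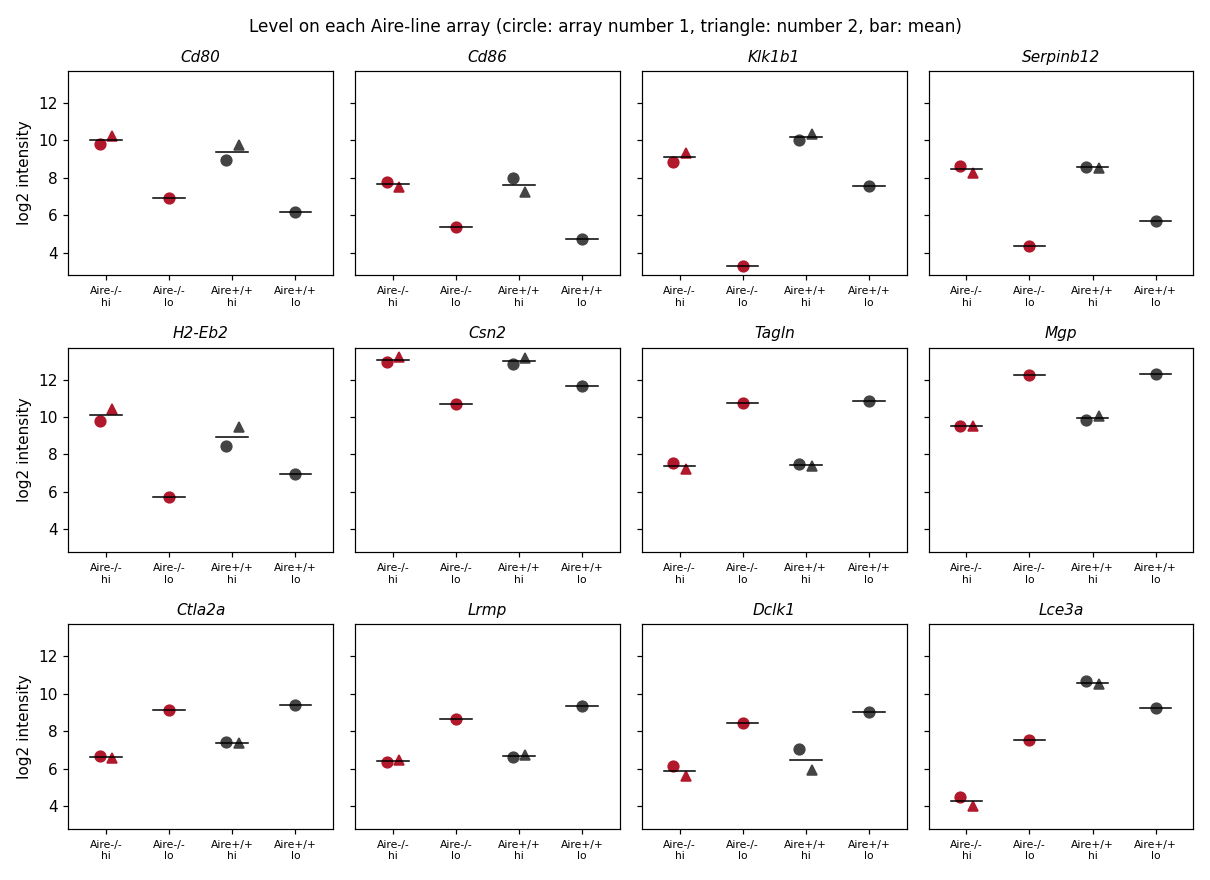
Log2 intensity of 12 genes on each array of the Aire line, with mTEChi (hi) left of mTEClo (lo) and Aire-/- left of Aire+/+; circles are arrays numbered 1, triangles arrays numbered 2 and bars group means. Klk1b1 stood at 8.86 and 9.34 in Aire-/- mTEChi and at 3.28 in Aire-/- mTEClo, and Lce3a is the panel in which the fractions lie in opposite order in Aire-/- and Aire+/+ cells.

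How far the wild-type maturation difference remained without Aire was asked of genes that passed between wild-type fractions. The Aire-/- values do not enter the wild-type differences, but all 12 arrays share 1 estimate of the spread. Over Aire+/+ and Brg1+/+ cells together, 567 genes passed between mTEChi and mTEClo (2.56%), 427 higher (1.93%) and 140 lower (0.632%). The Aire-/- differences of the 140 lower genes had a median of -1.61, against -1.67 in the wild types, and all 140 were below 0, where 59.5% of all genes were. The Aire-/- differences of the 427 higher genes had a median of 1.00, against 2.27 in the wild types, with 333 (78%) above 0, where 40.4% of all genes were.

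In Aire-/- cells 208 of the 427 higher genes (48.7%) had under 0.5 of the wild-type difference, and 15 of the 140 lower genes (10.7%) did; the difference between these shares was not tested. The wild-type values chose both sets and are on that account a high mark, so Brg1-/- cells, whose values likewise enter the choice through the spread alone, were set beside: their medians were 2.09 for the higher genes and -1.44 for the lower. Genes were also chosen on the 6 wild-type arrays alone and without a test, as those at least 1 unit apart on every wild-type mTEChi array from its mTEClo array, a choice made after seeing the data. The 487 such higher genes had a median of 0.87 in Aire-/- cells and 2.03 in Brg1-/- cells, and the 143 lower genes had -1.71 in Aire-/- cells and -1.47 in Brg1-/- cells. By array, the Aire-/- medians of the higher genes were 0.95 with mTEChi 1 and 1.16 with mTEChi 2, and of the lower genes -1.51 and -1.59. With the block, which gave 1534 wild-type genes (6.92%), 982 higher (4.43%) and 552 lower (2.49%), the medians were 0.83 in Aire-/- against 1.57 in wild types, and -1.07 against -1.15.

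**Figure D2:**
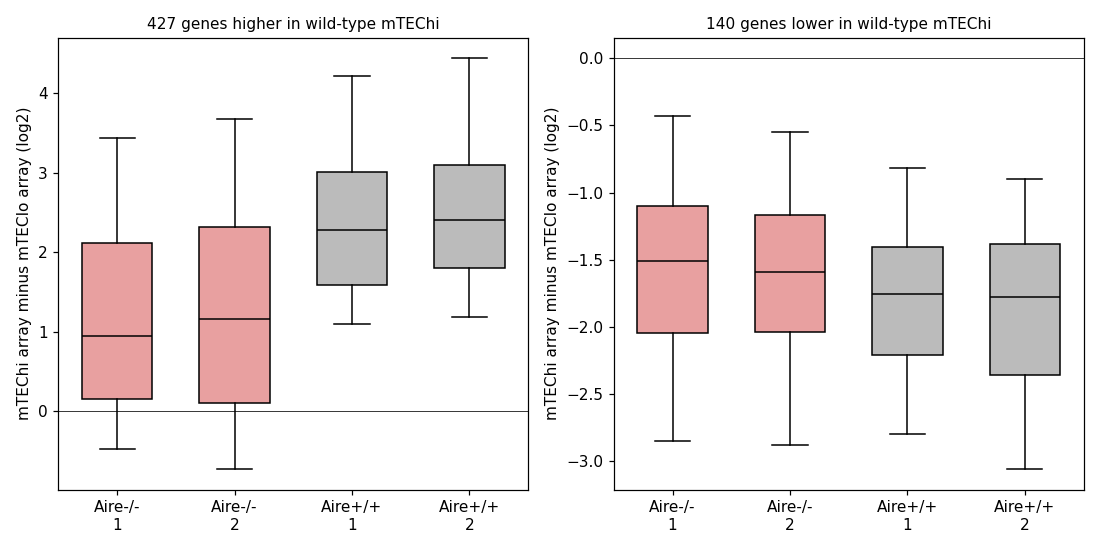
Boxplots of the difference between each mTEChi array and the mTEClo array of its genotype, for genes that passed in the wild types as higher (left) or lower (right); boxes span the quartiles, lines mark medians and whiskers the 5th to 95th percentiles. The Aire+/+ arrays helped to choose the genes; the Aire-/- medians of the higher genes, 0.95 and 1.16, lie below the Aire+/+ boxes, while those of the lower genes, -1.51 and -1.59, lie inside them.

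Of the 85 genes that rose without Aire, 71 (83.5%) also passed as higher in the wild types, beside 1.93% of all genes. These are 16.6% of the 427. Of the 19 that fell, 11 (57.9%) passed as lower there, beside 0.632% of all genes. These are 7.86% of the 140. Both tests use the same estimate of each gene's spread, which favours such overlap. No gene passed in opposite directions. The other 22 were not called in the wild types, which does not show that they differ. Batf3, a transcription factor of the AP-1 family, was 1 of the 14 that rose, named after its values were seen. It read 10.84 and 10.28 in Aire-/- mTEChi, against 6.89 in Aire-/- mTEClo (3.67, adjusted p = 0.0389), and its wild-type difference was 1.71 (adjusted p = 0.059). Tpm1, a tropomyosin of actin filaments chosen in the same way, was 1 of the 8 that fell. It read 6.62 and 6.57 in Aire-/- mTEChi, against 8.49 in Aire-/- mTEClo (-1.90, adjusted p = 0.0441), and its wild-type difference was -0.38 (adjusted p = 0.499). Across genes the 2 differences correlated with r of 0.621, a description over 22154 genes that share array type and processing.

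**Figure D3:**
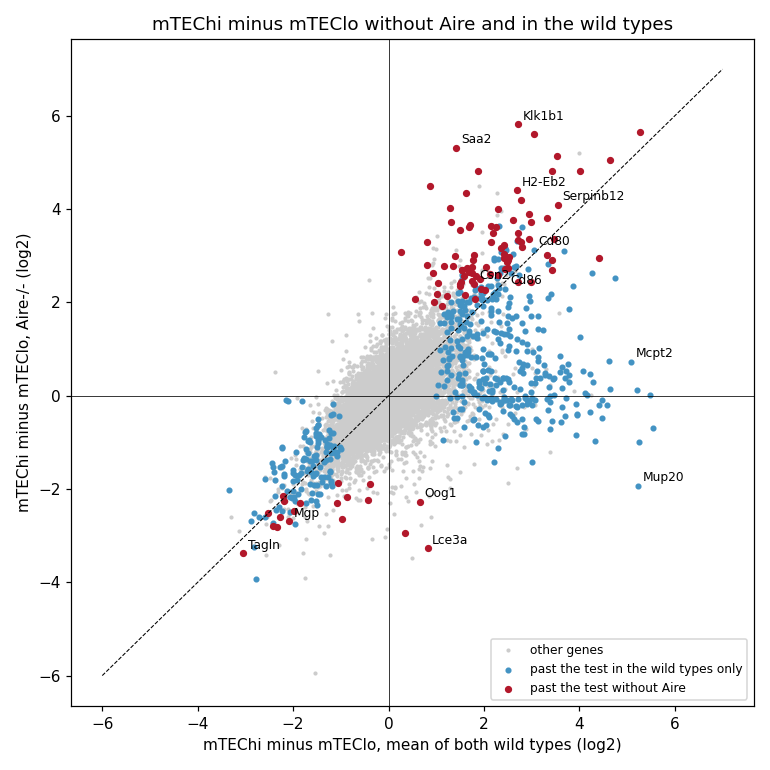
Difference between mTEChi and mTEClo in Aire-/- cells (vertical) against the mean of both wild types (horizontal), in log2 units, 1 point per gene; red points passed the test without Aire, blue points in the wild types alone, and the dashed line marks equal differences. Blue points on the right spread down to and below 0, as for Mup20 at -1.93 without Aire, while those on the left lie near the line.

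The difference between Aire-/- and Aire+/+ in the size of the mTEChi minus mTEClo change was then tested gene by gene. No gene passed in limma without the block, where 547 had an unadjusted p under 0.05, fewer than the 1108 that a uniform spread of p-values would give; with the block 63 passed (0.284%), 3 with a more positive difference in Aire-/- cells (0.0135%) and 60 with a more negative one (0.271%). The 60 had a median of -3.64. All 60 were at least 1 unit higher in Aire+/+ mTEChi than in Aire+/+ mTEClo. The same values chose the 60, which favours such a rise. In Aire-/- cells 49 differed by less than 1 unit. A further 10 were at least 1 unit lower in Aire-/- mTEChi and 1 was at least 1 unit higher. In 33 of the 60 the Aire-/- mTEClo array lay above both Aire-/- mTEChi arrays. By a looser measure, 59.5% of all genes had a fitted Aire-/- difference below 0. The choice of the 60 also favours low Aire-/- differences. Against both wild types 0 passed without the block (613 unadjusted, also under 1108). With it 89 passed (0.402%), 5 more positive (0.0226%) and 84 more negative (0.379%). Among the 84 were 55 of the 60. Both comparisons use the same Aire-/- and Aire+/+ arrays, which favours such overlap.

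The most negative values that the rule names were those of Mup20, Usp17lc, Defb50, Il9 and Bpifa5. Mup20, a major urinary protein that carries pheromones, read 4.80 and 3.73 in Aire-/- mTEChi, against 6.19 in Aire-/- mTEClo. In Aire+/+ cells it read 8.57 and 8.28 in mTEChi, against 2.99 in mTEClo. The difference of differences was -7.36 (adjusted p = 0.16, with the block 0.0114), and it takes in a mTEClo array that was higher in Aire-/- than in Aire+/+. Defb50, a beta-defensin, read 2.82 and 3.53 in Aire-/- mTEChi, against 4.01 in Aire-/- mTEClo, while Aire+/+ mTEChi read 8.48 and 8.60, against 3.16 in Aire+/+ mTEClo (-6.22, adjusted p = 0.0966, with the block 0.0125). The cytokine gene Il9 read 4.64 and 3.51 in Aire-/- mTEChi, against 4.11 in Aire-/- mTEClo, while Aire+/+ mTEChi read 9.48 and 8.99, against 3.73 in Aire+/+ mTEClo. Usp17lc and Bpifa5 had differences of differences of -6.30 and -5.16 (adjusted p = 0.41 and 0.136, with the block 0.0116 and 0.0114). The 2 wild types were not alike in all 5 genes. Differences in Aire+/+ and Brg1+/+ cells were 4.42 and 0.60 for Usp17lc, 5.51 and 1.94 for Il9 and 5.38 and 2.50 for Defb50. They were 5.43 and 5.03 for Mup20 and 4.18 and 4.46 for Bpifa5.

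Of the more positive differences of differences, those of Klk1b1, Saa2 and Yae1d1 passed with the block. Klk1b1 differed by 5.82 in Aire-/- cells and its difference of differences was 3.16 (adjusted p = 0.216, with the block 0.0225). Yet its mTEChi level was lower without Aire, at 8.86 and 9.34, against 10.03 and 10.35 in Aire+/+ mTEChi. The mTEClo array of Aire-/- cells read 3.28, against 7.53 in Aire+/+ cells. Saa2 had the same form, at 10.37 and 10.75 in Aire-/- mTEChi and 5.24 in Aire-/- mTEClo, against 12.38 and 12.62 in Aire+/+ mTEChi and 10.35 in Aire+/+ mTEClo. Yae1d1 was of another form: it read 8.99 and 9.19 in Aire-/- mTEChi, with 5.79 in Aire-/- mTEClo, against 7.62 and 8.29 in Aire+/+ mTEChi and 7.47 in Aire+/+ mTEClo, so its mTEChi level was higher without Aire as well. Epyc read 8.85 on both Aire-/- mTEChi arrays and 4.50 in Aire-/- mTEClo, against 6.93 and 7.59 in Aire+/+ mTEChi and 5.73 in Aire+/+ mTEClo, and did not pass with or without the block. Each mTEClo value is 1 array, so its spread is taken from the other groups.

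Lce3a and Oog1, which fell without Aire, lay the other way in Aire+/+ cells. Lce3a, a late cornified envelope gene of skin, read 4.51 and 4.00 in Aire-/- mTEChi, against 7.52 in Aire-/- mTEClo (-3.27 ± 0.490, adjusted p = 0.0481). In Aire+/+ cells it read 10.69 and 10.50 in mTEChi, against 9.24 in mTEClo. Oog1, an oocyte gene, read 7.17 and 7.25 in Aire-/- mTEChi, against 9.49 in Aire-/- mTEClo, while Aire+/+ mTEChi read 10.12 and 10.16, against 8.99 in Aire+/+ mTEClo. The differences of differences, -4.62 and -3.43, passed with the block (adjusted p = 0.018 and 0.0212) and not without it (0.216 and 0.165).

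Tissue-restricted genes were followed as 9 lists of peripheral tissues with 186 measured genes in all. Their median difference was 0.02 in Aire-/- cells, against 0.85 in Aire+/+ cells and -0.09 over all genes in Aire-/- cells. In Aire-/- cells 6 rose, beside 0.384% of all genes, and 0 fell. With the block 10 rose, beside 1.47% of all genes, and 4 fell, beside 0.808%. In the wild types 55 were higher, beside 1.93% of all genes. The 6 were Csn2 (a milk casein), Fabp6 (an ileal bile acid carrier), Fabp9 (a testis fatty acid carrier), Ttr (the thyroxine carrier transthyretin) and the acute-phase genes Saa2 and Saa3. Csn2 read 12.92 and 13.21 in Aire-/- mTEChi, against 10.67 in Aire-/- mTEClo (2.40 ± 0.307, adjusted p = 0.0303). All 6 also passed as higher in the wild types.

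Intestine genes had the highest list median without Aire, 0.61 over 25 genes, against 1.32 in Aire+/+ cells. In the wild types 13 of them were higher, beside 1.93% of all genes. Salivary, lacrimal and mammary gland genes had a median of 0.01 over 21, against 1.36 in Aire+/+ cells. Pancreas genes had 0.17, against 1.09, testis and oocyte genes 0.10, against 1.12, and brain and nerve genes 0.18, against 1.14 in Aire+/+ cells. These medians are descriptions and the differences between tissues were not tested.

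Most other members did not pass without Aire, and their values varied. Nefl, a neurofilament, read 4.28 and 4.74 in Aire-/- mTEChi, with 6.81 in Aire-/- mTEClo (-2.30, adjusted p = 0.063, with the block 0.0179), and Zp2, an egg coat protein, had a difference of 2.09 (adjusted p = 0.0944, with the block 0.033). Defa22 and Ppy, chosen after their values were seen, had nearly equal levels in both Aire-/- fractions. Defa22, a Paneth cell defensin, read 4.19 and 3.79 in Aire-/- mTEChi, with 3.82 in Aire-/- mTEClo, against 11.40 and 11.81 in Aire+/+ mTEChi and 7.46 in Aire+/+ mTEClo. Ppy, pancreatic polypeptide, read 6.69 and 6.20 in Aire-/- mTEChi, with 6.53 in Aire-/- mTEClo, against 11.70 and 11.17 in Aire+/+ mTEChi and 7.89 in Aire+/+ mTEClo. With the block, 16 of the 186 had a more negative difference in Aire-/- than in Aire+/+ cells, beside 0.271% of all genes, Defa22 and Ppy among them, and 1, Saa2, had a more positive one.

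Most genes of antigen presentation and costimulation passed neither with nor without the block. Of 19 MHC class II presentation genes H2-Eb2 rose, beside 0.384% of all genes, with a list median of 0.55. With the block 3 rose, H2-Eb2 and the cathepsins Ctsh and Ctss, beside 1.47% of all genes, and 1 fell, the cathepsin Ctsl (-1.85, adjusted p = 0.161, with the block 0.0124). Of 17 costimulatory and coinhibitory ligands 0 passed, beside 0.469% of all genes, and 4 rose with the block, beside 1.47%. Those were Cd80, Cd86, Cd70, the ligand of CD27, with a difference of 3.04 (adjusted p = 0.144, with the block 0.0133), and Tnfsf9, the 4-1BB ligand, with 2.08 (0.295, with the block 0.0444). H2-Aa, a class II alpha chain that the sort selects for, read 11.33 and 12.15 in Aire-/- mTEChi, with 10.48 in Aire-/- mTEClo, a difference that did not pass. Of 28 chemokines and cytokines 0 passed, while 7 rose and 1 fell with the block, beside 1.47% and 0.808% of all genes. Il15, a cytokine for killer and memory T cells, read 10.07 and 10.72 in Aire-/- mTEChi, against 7.61 in Aire-/- mTEClo (2.79, adjusted p = 0.0787, with the block 0.00915).

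Genes of signalling and transcription were read next. Of 22 NF-kB and TNF receptor genes 0 passed and 2 rose with the block, beside 1.47% of all genes, with a median of 0.34. Tnfrsf4, the costimulatory receptor OX40, read 8.57 and 8.91 in Aire-/- mTEChi, against 6.70 in Aire-/- mTEClo (2.04, adjusted p = 0.0976, with the block 0.0147). Of 28 mTEC transcription factors 0 passed, and Aire itself was the 1 that rose with the block, beside 1.47% of all genes. Fezf2, a transcription factor that also drives tissue-restricted genes in mTECs, read 8.52 and 8.88 in Aire-/- mTEChi, against 7.57 in Aire-/- mTEClo (1.13, adjusted p = 0.521, with the block 0.173). Of 32 interferon response genes 0 passed and 5 fell with the block, beside 0.808% of all genes, with a median of -0.22.

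Tuft cell genes lay on the low side in mature cells. Of 31 measured, 1 fell (Lrmp), beside 0.0858% of all genes, and 8 fell with the block, beside 0.808%; 26 were below 0 and the list median was -0.91, against -0.75 in Aire+/+ cells. Dclk1, a kinase that marks tuft cells, read 6.13 and 5.59 in Aire-/- mTEChi, against 8.47 in Aire-/- mTEClo (-2.61, adjusted p = 0.143, with the block 0.0133). Bitter taste receptor genes had a median of -0.62 over 35, against -0.97 in Aire+/+ cells, with 31 below 0. Of them 0 passed the test, and 5 fell with the block, beside 0.808% of all genes. Their mean level was 3.77 and 3.35 in Aire-/- mTEChi, with 4.63 in Aire-/- mTEClo, below the median of each array. The shares below 0 in both lists stand beside 59.5% of all genes.

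Few keratinocyte, microfold and progenitor genes passed. Of 32 cornified keratinocyte genes 1 rose (Serpinb12), beside 0.384% of all genes, and 1 fell (Lce3a), beside 0.0858%. Their median was -0.40, against -0.15 in Aire+/+ cells. Of 20 microfold cell genes Anxa10 rose, beside 0.384% of all genes, with a list median of 0.42. Among 25 mTEC low and progenitor genes Ctla2a fell, beside 0.0858% of all genes, and 4 fell with the block, beside 0.808%. Their median was -0.53. Of 40 cell cycle genes 0 passed with or without the block, with a median of 0.02.

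**Figure D4:**
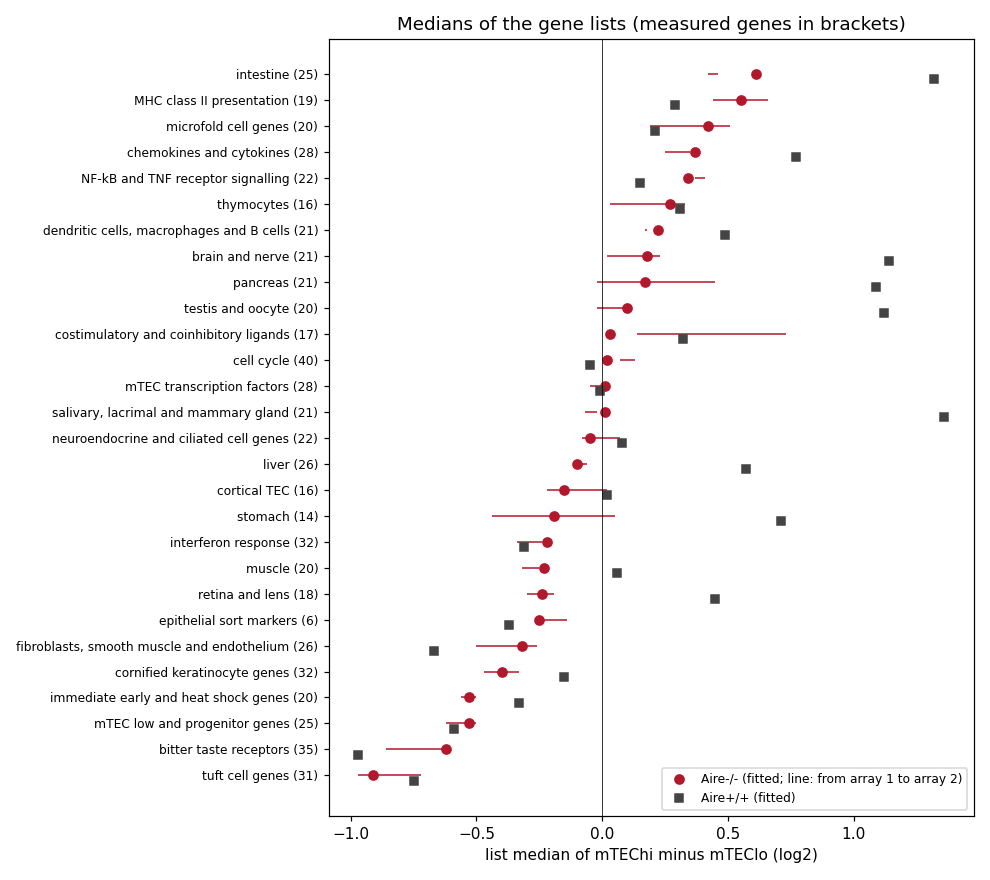
Median difference between mTEChi and mTEClo of each gene list, in log2 units, in Aire-/- cells (red circles, the red line running between the medians of array 1 and array 2) and in Aire+/+ cells (black squares). The squares of the tissue lists, such as intestine and pancreas, lie to the right of their circles, while tuft cell genes lie left of 0 in both, at -0.91 and -0.75.

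Markers of cells outside the sort were read beside these results. Of 26 fibroblast, smooth muscle and endothelial genes Tagln and Mgp fell, beside 0.0858% of all genes, and 4 fell with the block, beside 0.808%. The list median was -0.32, against -0.67 in Aire+/+ cells. Bright genes such as Mgp, at 12.23 in Aire-/- mTEClo, weigh most in the summed intensity of the list. That sum was 3868 and 3509 in Aire-/- mTEChi, against 10297 in Aire-/- mTEClo. Aire+/+ cells summed to 3396 and 3197 in mTEChi, against 11670 in mTEClo. Col1a1, a collagen of fibroblasts, read 5.78 and 5.93 in Aire-/- mTEChi, with 5.90 in Aire-/- mTEClo, near the array medians. Dcn, a fibroblast proteoglycan, read 10.23 and 10.24 in Aire-/- mTEChi, with 9.50 in Aire-/- mTEClo, a difference that did not pass. Of 21 dendritic cell, macrophage and B cell genes Fcer1g, an Fc receptor chain, rose (3.29, adjusted p = 0.0229), beside 0.384% of all genes. The list median was 0.22, and the list summed to 3166 and 4256 in Aire-/- mTEChi, against 1591 in Aire-/- mTEClo. Of 16 thymocyte genes 0 passed; Cd8b1 read 5.26 and 7.94 in Aire-/- mTEChi, with 5.39 in Aire-/- mTEClo, high on 1 array. The part of such cells in the falls of Tagln and Mgp and in the rise of Fcer1g was not tested.

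Of 20 immediate early and heat shock genes 0 passed with or without the block. Their differences had a median of -0.53 in Aire-/- cells, against -0.33 in Aire+/+ cells, and 19 of 20 were below 0 without Aire, where 59.5% of all genes were. Summed intensity was 13322 and 15099 in Aire-/- mTEChi, against 22298 in Aire-/- mTEClo.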

How the data were processed

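Per the labels' protocols, RNA of sorted mTECs was extracted with Trizol LS, purified on columns, amplified, labelled and hybridised to Affymetrix gene arrays. The authors deposited 1 linear intensity per probe set and array; per the submitters' processing notes, Affymetrix Expression Console, RMA and Transcriptome Analysis Console were used, without versions. Joint normalization of the 12 arrays is not stated there. Changes of dim genes may be compressed by background. The number of arrays limits the precision.

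Deposited intensities were turned to log2 with no pseudocount. Of 33732 probe sets, 23491 had 1 gene symbol in the platform annotation, 1811 several and 8430 none. The brightest probe set per gene was kept (1337 set aside), leaving 22154 genes, of which 21968 matched RefSeq GRCm38.p6 by Entrez identifier. Groups came from titles. limma 3.58.1 (R 4.3.3; lmFit, eBayes) fitted 8 group means over 12 arrays with 4 residual and 3.46 prior degrees of freedom, two-sided, Benjamini-Hochberg over all genes, threshold 0.05. The spread of each single mTEClo array was taken to equal that of the other groups. SE is limma's moderated standard error.

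Replicate numbers are shared between groups. Deviations from group means of same-numbered mTEChi arrays correlated with r of 0.552 to 0.657 in all 6 pairs of groups, so the number within each line was fitted as a block and its values are given where they change a call; that fit has 2 residual degrees of freedom. What the number marks is not given in the labels.

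Members, gene lists and the rule for named genes were chosen with earlier results of these data known. The rule takes Cd80, Cd86 and Aire, up to 12 genes each way past the test ranked by the smaller array difference, up to 5 each way for each difference of differences (here at an unadjusted p under 0.05), and up to 4 members of each list; predicted genes, small RNAs and olfactory and vomeronasal receptors were left out. Alternatives were the block, each mTEChi array left out, centring, quantile normalization, the Aire line alone, a filter on dim genes, the mean of probe sets and a variance trend. Steps were tested on simulated data. Promoters were aligned with Biopython 1.88.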

Additional observations from a re-analysis of the deposited data

Results flagged for a closer look

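The mTEChi minus mTEClo change differed between Aire-/- and Aire+/+ cells for 63 genes when the array number was fitted as a block, and between Aire-/- cells and both wild types for 89 genes; without the block 0 passed in limma in either comparison, with 547 and 613 genes at an unadjusted p under 0.05, both under the 1108 that a uniform spread of p-values would give.

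For 15 of 137 named genes both Aire-/- mTEChi arrays lay on one side of their mTEClo array and both Aire+/+ mTEChi arrays on the other side of theirs. In 14 the genes were lower in Aire-/- mTEChi than in Aire-/- mTEClo and higher in Aire+/+ mTEChi than in Aire+/+ mTEClo. Their Aire-/- differences were -3.27 for Lce3a, -2.28 for Oog1, -1.93 for Mup20, -1.88 for Usp17lc, -0.98 for Bpifa5, -0.84 for Defb50 and -0.48 for Cst10. The other 7 were list members, at -2.30 for Nefl, -1.61 for Tff1, -1.21 for Bpifa1, -1.12 for Oxt, -1.08 for Cryba2, -0.98 for Sst and -0.77 for Ccne1. Zfp709 ran the other way, with 1.76 in Aire-/- cells. Each value rests on 1 mTEClo array per genotype. In limma the difference between Aire-/- and Aire+/+ passed for 0 of the 15 without the block. With it 7 passed, namely the first 7 given. Some of the 137 genes were named for the size of this difference or of that from both wild types. Such a choice favours opposite order and a pass. The share of all genes in opposite order is not given here.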

How the results depend on the processing

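The count of 104 genes between Aire-/- mTEChi and Aire-/- mTEClo was 505 with the replicate block and 753 with a block common to both lines, 158 among genes at or above the median level, and 0 with the Aire line alone. Leaving out 1 mTEChi array gave 0 to 79 genes; leaving out arrays of other groups was added after seeing the data. The wild-type count of 567 was 1534 with the block, 1757 with the common block, and 307 to 470 with 1 array left out, and 248 with the wild-type arrays alone. The Aire-/- minus Aire+/+ difference passed for 0 genes, against 63 with the block and 66 with the common block. Against both wild types the count of 0 was 89 with the block, 90 with the common block, 2 with centred arrays, 3 with quantile normalization, 12 among genes at or above the median level, 7 with the mean of probe sets and 0 to 2 with 1 array left out. Calls among list members numbered 15, against 65 with the block and 0 with 1 Aire-/- mTEChi array left out, whichever it was. The Aire-/- median of 1.00 over genes higher in the wild types lay within 0.95 to 1.16 with 1 array left out and was 1.33 among genes at or above the median level. The median of -1.61 over the lower genes lay within -1.62 to -1.51 with 1 array left out and was -1.51 with centred arrays and -1.71 over genes at least 1 apart on every wild-type array pair. The alternatives for the wild-type counts and for these medians were also chosen after seeing the data. Of 2377 alternatives over 150 single-gene results, 2024 kept direction and call, 133 passed newly, 213 no longer passed and 7 changed sign. The sign changes were all in Y-linked genes that did not pass: Uty at 0.12 with the block, Kdm5d at 0.23 with the block, 0.12 with the common block and -0.86 to 0.22 with 1 Aire-/- mTEChi array left out, and Eif2s3y at 0.57, 0.19 and -0.99 to 0.58 under the same alternatives. The cause of these changes was not tested.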
